A study of Mus musculus with 8 samples.

Results

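The binding table of the series listed 5551 consensus sites of the wild type transcription factor KLF1-ER and of its mutant KLF1-E339K-ER in the genome of an immortalized mouse erythroid line. At 732 sites (13.2% of 5551) the wild type concentration was at least 4 and the mutant concentration was under 2, and 510 of these lay more than 1000 bp from the closest transcription start site (TSS). These 510 non-promoter sites lost by the mutant are described here. They were chosen by the 2 measured concentrations themselves, so their loss is the rule and not a finding. A concentration is the log2 of the authors' mean normalized read count at a site.

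The cells were K1, a Klf1-/- line made from fetal liver erythroid cells, which carried KLF1-E339K fused to the hormone-binding part of the estrogen receptor (K1-E339K-ER cells). The transgene was delivered by a retroviral vector, and the fusion protein moves to the nucleus when 4-hydroxytamoxifen (4-OHT) is given. The mutant ChIP-seq library came from 3 pooled replicates of 1 clone (2A), induced with 200 nM 4-OHT for 3 h and precipitated with an antibody to the estrogen receptor, with 1 input library beside it. The wild type concentrations were the authors' values for K1-ER cells, which carry wild type KLF1-ER in the same Klf1-/- background, from libraries that are not among the samples of this series. Newly made RNA was labelled with 500 μM 4-thiouridine (4sU) in 3 K1 libraries, 1 of them labelled as given ethanol and the others 4-OHT, and in 3 K1-E339K-ER libraries, given 200 nM 4-OHT, from the separate clones 1B, 2A and 2B. As neither protein has replicate values in the table, no comparison between wild type and mutant was tested here. The study's own test of differential binding at each site was not used. Every interval below is a 95% Wilson interval that covers counting error over sites only.

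KLF1 is a zinc finger protein that switches on the genes of red cell formation, among them those for globins, heme synthesis, the membrane skeleton and the cell cycle. It reads a G-rich 9-letter element, often called a CACC box after its other strand, and it acts from promoters and from distant enhancers, where GATA1 and TAL1 are frequent neighbours. In mouse KLF1 the glutamate that is changed to lysine in E339K lies in the second zinc finger, opposite the middle of the element. The matching change in human KLF1 causes congenital dyserythropoietic anemia type IV. The element of the wild type protein was searched as the 4 pyrimidine words NGGGCGTGG, NGGGCGGGG, NGGGTGTGG and NGGGTGGGG, and that of the mutant as the 4 purine words NGGGAGTGG, NGGGAGGGG, NGGGGGTGG and NGGGGGGGG, in which the fifth letter is A or G. The study found both motifs by a de novo search of the ChIP-seq peaks of these same proteins. Shares of matches in groups chosen by the concentrations are therefore descriptions and no independent check of the motifs.

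The 5 sequences that follow are from mm9 and belong to the lost sites with the highest wild type concentrations among those that had a pyrimidine match and a gene of 6 erythroid lists as their closest gene. Each is written 5′ to 3′ on the strand that carries the G-rich word, with the 9 letters of the match in capitals.
Ubac1 (chr2:25869377-25869437, minus strand, intron of Ubac1): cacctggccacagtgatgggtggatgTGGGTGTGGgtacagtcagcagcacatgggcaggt
Ccnd3 (chr17:47645104-47645164, plus strand, intron of Ccnd3): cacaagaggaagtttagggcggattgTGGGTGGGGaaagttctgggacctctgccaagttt
Slc25a38 (chr9:120025546-120025606, plus strand, intron of Slc25a38): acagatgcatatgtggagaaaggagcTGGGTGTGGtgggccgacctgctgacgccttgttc
Hbb-y (chr7:111009640-111009700, plus strand, intergenic): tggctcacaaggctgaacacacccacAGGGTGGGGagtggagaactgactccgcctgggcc
Sox6 (chr7:123016628-123016688, minus strand, intron of Sox6): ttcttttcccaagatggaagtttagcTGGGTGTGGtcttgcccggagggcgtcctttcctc

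These sites were picked for having a match, which 14 of the 24 lost sites of list genes had. In the Hbb-y site the purine word GGGAGTGG begins inside the pyrimidine word and shares its last letters, so this site matched both motifs.

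The wild type concentration of the 510 sites ran from 4.2 to 7.49 with a median of 5.07, and the mutant concentration from -0.38 to 1.99 with a median of 0.66. The difference between them had a median of 4.57 on the log2 scale and ran from 2.29 to 7.87. At 119 of the 510 sites (23.3%) the mutant concentration was -0.38, the lowest value listed anywhere in the table, so at those sites the difference is bounded by what the mutant library could register. The low end is coarse: 186 of the 510 sites sat at 1 of only 3 mutant values, -0.38, 0.05 and 0.34, and 312 were under 1. The depth of the 2 libraries is unknown from this table.

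**Figure D1:**
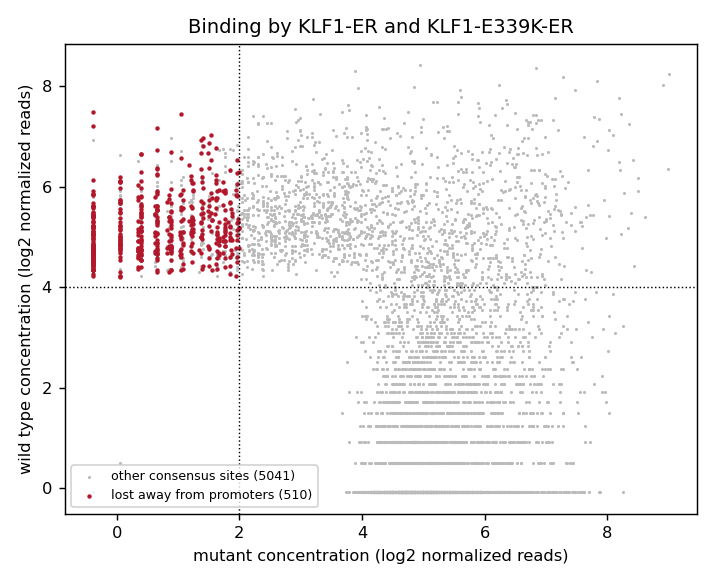
Wild type concentration against mutant concentration (both log2 normalized reads) for the 5551 consensus sites. The 510 lost sites away from promoters are red, the other 5041 grey, and dotted lines mark the limits of 4 and 2. The red points stand in columns at the left because the low mutant values are few, the leftmost column being the 119 sites at -0.38.

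The limits cut through the data unevenly. The lost sites closest to the mutant limit were those of H2-Ke2, 4933411K20Rik and Pitpnc1, each at 1.99, and the nearest sites beyond it were those of Plekhg5 (2.03), Gtpbp4 (2.04) and Celf5 (2.04). At the distance limit, the sites of Racgap1 (1026.5 bp), Larp1b (1031 bp) and Il17d (1040.5 bp) were inside, and those of Dffb (946.5 bp), Gm4532 (880.0 bp) and Zfp296 (863 bp) were outside. No site stood just under the wild type limit: the lowest lost sites were those of Acyp2 at 4.2 and of Fam86 and Kcnip2 at 4.23, and no non-promoter site with a mutant concentration under 2 had a wild type concentration under 4.

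By position the lost sites were mostly intronic and intergenic. The midpoint lay in an intron at 285 sites (55.9%, 51.5 to 60.1) and between genes at 201 (39.4%, 35.3 to 43.7), while 7 were in coding exons, 11 in untranslated exon parts and 6 in exons of noncoding transcripts. Of the 285 intronic sites, 196 were in an intron of the gene the table named as closest. Distances to the nearest TSS had a median of 13996.5 bp, with 201 sites within 10 kb and 78 beyond 50 kb. The name non-promoter needs a limit, however, since the GENCODE annotation places a TSS within 1 kb of 47 of the 510 sites (9.22%). The 469 non-promoter sites at which both proteins had a concentration of at least 4 were intronic in 52.9% (48.4 to 57.4), and the 1552 mutant-only sites away from promoters (mutant at least 4, wild type under 2) in 52.5% (50 to 55), so the 3 intervals overlapped. The lost sites were on 20 chromosomes, with 3 to 41 sites each.

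The pyrimidine motif was found within 50 bp of the midpoint at 337 of the 510 lost sites (66.1%, 61.9 to 70.1). Windows of the same 101 bp placed 1000 bp to either side held it in 4.31% (3.23 to 5.74). Among all 5551 sites the share was 35.4%. It was 61.7% (55.2 to 67.9) at the 222 promoter sites lost by the mutant, 34.3% (30.2 to 38.7) at the non-promoter sites bound by both proteins and 21.4% (19.4 to 23.5) at the mutant-only sites. The interval of the lost distal sites overlapped that of the lost promoter sites and neither of the other 2.

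The purine motif was less frequent in the lost sites than in the sites bound by both or by the mutant only. It was present at 74 of the 510 (14.5%, 11.7 to 17.8) and at 9.01% (5.91 to 13.5) of the lost promoter sites, against 35.7% of all sites, 30.7% (26.7 to 35.0) of the sites bound by both and 50.3% (47.8 to 52.7) of the mutant-only sites. Windows 1000 bp away from the lost sites held it in 6.37% (5.03 to 8.04). Only 20 lost sites had a purine match without a pyrimidine match, while 283 had a pyrimidine match alone, 54 had both and 153 had neither.

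**Figure D2:**
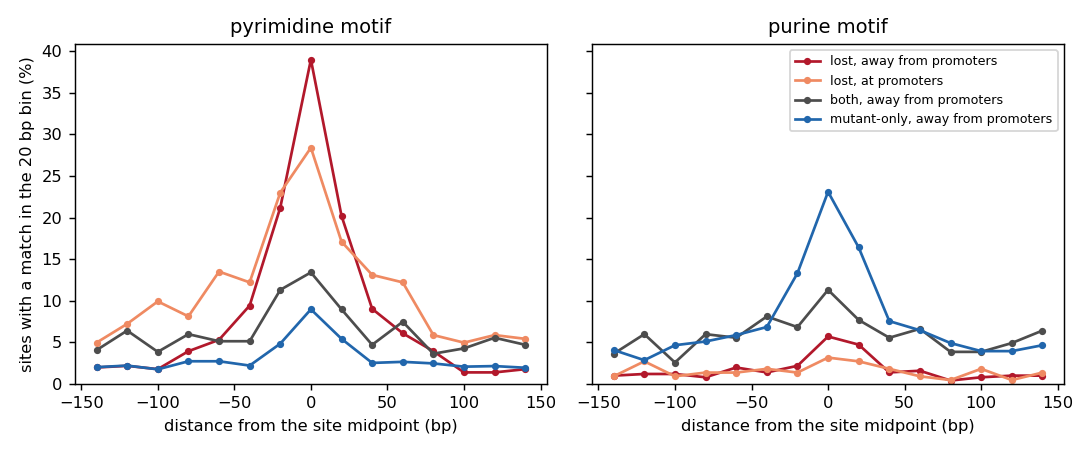
Share of sites (%) with a pyrimidine match (left) or a purine match (right) in each 20 bp bin by distance of the match from the site midpoint (bp), for the 510 lost distal sites, the 222 lost promoter sites, the 469 distal sites of both proteins and the 1552 mutant-only distal sites. The pyrimidine match of the lost distal sites is gathered in the central bins, and their purine curve stays under those of the sites bound by both and of the mutant-only sites at the centre.

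Matches at the lost sites were close to the middle. The match closest to the midpoint was centred within 10 bp of it at 217 of the 357 lost sites that had a match of either kind (60.8%, 55.6 to 65.7), compared with 46.5% (38.6 to 54.7) at the lost promoter sites, 42.6% (36.5 to 49.0) at sites of both proteins and 46.7% (43.4 to 50) at mutant-only sites. More than 1 pyrimidine match was found at 136 lost sites (26.7%, 23.0 to 30.7), and 39 had 4 or more. Sites with several matches had a median wild type concentration of 5.23, those with 1 match 5.02 and those with none 5.00, with wide overlap (4.34 to 6.93, 4.2 to 6.98 and 4.23 to 7.49).

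The fifth letter of the match closest to the midpoint was C at 180 of the 357 lost sites with a match (50.4%, 45.3 to 55.6), T at 136 (38.1%, 33.2 to 43.2), A at 37 (10.4%) and G at 4 (1.12%). The same letter at lost promoter sites was C in 76.4% (68.8 to 82.6) and T in 16% (10.9 to 22.8), so the distal sites carried T more often and C less often, with intervals that do not overlap. By word, GGGCGTGG was closest at 105 distal sites, GGGTGTGG at 79, GGGCGGGG at 75 and GGGTGGGG at 57. Among the purine words GGGAGTGG was closest at 30 and the remaining 3 at 11 in all.

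At non-promoter sites bound by both proteins T was the most frequent letter at position 5, at 36.3% (30.4 to 42.6), with A at 29.1%, C at 18.1% (13.8 to 23.5) and G at 16.5%. At mutant-only sites it was G at 49.0% (45.7 to 52.3), with C at 6.14% (4.73 to 7.92). Against the sites bound by both, C differed most and T was about as frequent. Against the mutant-only sites, G and C differed most.

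**Figure D3:**
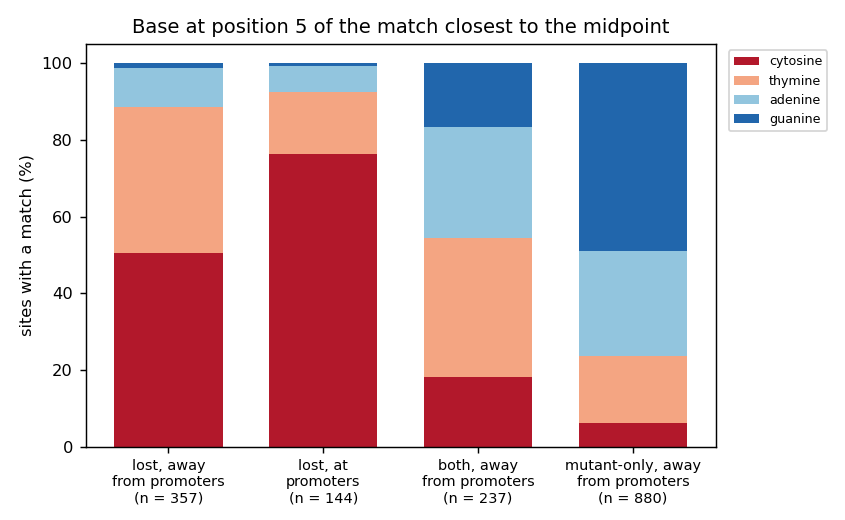
Base at position 5 of the match closest to the site midpoint, as a share of the sites that have a match (%), in 4 groups of sites with n under each bar. The lost distal sites are 50.4% cytosine and 38.1% thymine, and the mutant-only distal sites are 49.0% guanine and 27.5% adenine.

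Of the 153 lost sites without any match, 125 (81.7%, 74.8 to 87.0) had a word with 1 difference from the pyrimidine motif within 50 bp of the midpoint, 24 needed 2 differences and 4 needed 3. Among windows of the same length 1000 bp away that had no match, 19.8% (17.4 to 22.5) had such a word. The share over sites without a match was 82.1% (72.1 to 89.0) at lost promoter sites, 64.2% (57.9 to 70.1) at distal sites of both proteins and 52.1% (48.3 to 55.8) at mutant-only sites. The differing position, counted from 1 at the free first letter, was the ninth at 49 sites and the eighth at 46, against 15 at position 6, 10 at position 2 and 3 or fewer at each of positions 3, 4 and 7. Position 5 could not appear in this count at a difference of 1, since a word that differs there is a purine match. Positions were not counted in the windows 1000 bp away or in the other groups. Whether this order is particular to the lost sites was therefore not examined. The 3 sequences below are those with the highest wild type concentrations among lost sites of erythroid list genes that had no match and 1 difference, with the 9 letters of the word in capitals. The difference is written as motif letter, position and site letter.
Epb4.9 (chr14:71024633-71024693, plus strand, intron of Epb4.9), G8T: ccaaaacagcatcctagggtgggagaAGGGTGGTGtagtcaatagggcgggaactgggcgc
Btg2 (chr1:135968183-135968243, minus strand, intergenic), G9C: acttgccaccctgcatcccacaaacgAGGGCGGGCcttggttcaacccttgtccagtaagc
Piezo1 (chr8:125077659-125077719, plus strand, intron of Gm20388), G9T: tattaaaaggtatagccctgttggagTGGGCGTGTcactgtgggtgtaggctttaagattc

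A different kind of sequence was shared by many lost sites. The 12-letter run that occurred in the most lost sites within 150 bp of the midpoint was ACGCCTTTAATC, found at 74 of the 510 (14.5%, 11.7 to 17.8). It was present in 1.47% (0.893 to 2.41) of the windows 1000 bp away and occurs 51008 times in the mm9 genome on both strands together. As background, these letters belong to the B1 family of short interspersed repeats, which derive from 7SL RNA and are spread through the mouse genome. No repeat annotation was used here, so the sites are named by the run alone. Of the 5 lost sites with the run and the highest wild type concentrations, 3 are printed, on the strand of the run, with the run and the pyrimidine word before it in capitals.
Zbtb37 (chr1:162960722-162960776, plus strand, intron): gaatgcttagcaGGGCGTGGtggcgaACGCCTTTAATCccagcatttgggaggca
Sp1 (chr15:102232280-102232334, minus strand, intergenic): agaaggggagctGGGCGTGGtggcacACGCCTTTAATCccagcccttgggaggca
Tmppe (chr9:114309090-114309144, plus strand, intergenic): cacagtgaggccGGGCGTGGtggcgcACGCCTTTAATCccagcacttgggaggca

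The run mostly followed a KLF1 element at a fixed spacing. At 61 of the 74 sites a pyrimidine word ended 6 bases before the run, as it does in the 3 sequences above. This spacing was not counted at the other sites with the run, in the windows 1000 bp away or over the genome. Whether it is particular to the lost sites or common to copies of the run was therefore not examined. The match closest to the midpoint was GGGCGTGG at 55 of the 74, so 55 of the 105 lost sites led by that word carried the run. With all 74 sites left out, GGGTGTGG (75 sites) and GGGCGGGG (74 sites) were the most frequent words. The 74 sites lay on 20 chromosomes near 73 different genes.

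Where the run occurred, it was mainly in the lost sites. Of the 92 sites with the run among all 5551, 74 were lost distal sites, 10 were lost promoter sites, 7 had a wild type concentration of at least 4 with a mutant concentration of at least 2, and 1 had a wild type concentration under 4. The shares were 4.5% (2.46 to 8.09) at lost promoter sites, 0.640% (0.218 to 1.86) at distal sites of both proteins and 0.0644% (0.0114 to 0.364) at mutant-only sites. As a description only, since the rule used the mutant concentration and the run was picked for its frequency in the lost sites, 41 of the 74 lost sites with the run (55.4%) were at the lowest listed mutant value, against 78 of the 436 without it (17.9%), while the median wild type concentrations were 4.9 and 5.10. For the mutant library the study's methods state that reads mapping to several places were discarded. For the wild type library that step is not given in the sources used here, and the part it may have in these values was not tested.

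**Figure D4:**
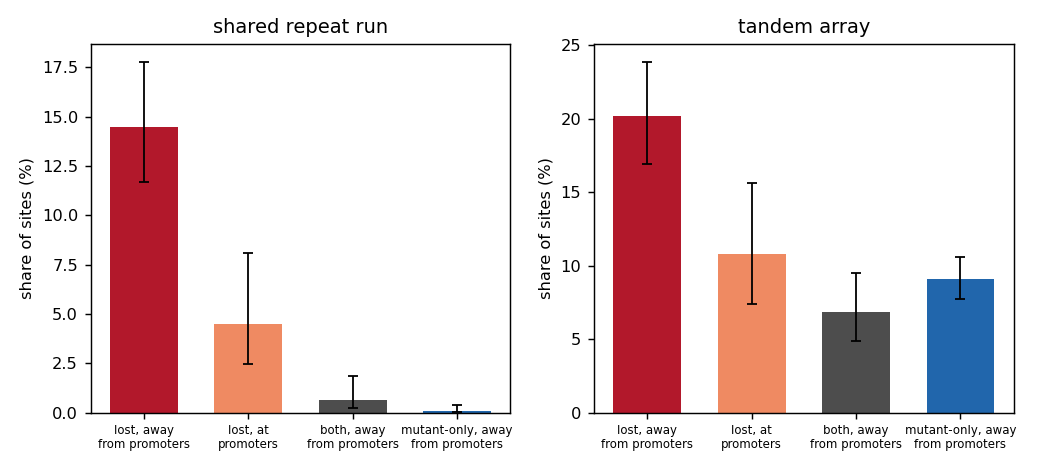
Share of sites (%) with the shared 12-letter run within 150 bp of the midpoint (left) and with a tandem array (right) in the 4 groups of sites, with 95% Wilson intervals as error bars. The run reaches 14.5% in the lost distal sites and 0.0644% in the mutant-only distal sites, and the array 20.2% and 9.09%.

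The lost sites were also rich in short tandem arrays, defined as a 10-letter word, not itself a repeat of 1 or 2 letters, that occurs 4 or more times in a site. Such an array was present at 103 of the 510 (20.2%, 16.9 to 23.9), against 10.8% (7.37 to 15.6) of lost promoter sites, 6.82% (4.87 to 9.47) of distal sites of both proteins, 9.09% (7.75 to 10.6) of mutant-only sites and 8.02% of all sites. The step, here the smallest distance between the starts of 2 copies in a site, was 5 bp at 36 of the 103. Regular spacing of the copies was not required. In 71 of the 103 the site held a pyrimidine match over its length, beside 381 of all 510 lost sites (74.7%). Arrays were not counted in windows 1000 bp away. The handling of reads with several map positions, not known for the wild type library, was not tested for arrays either. As a description only, since the rule used the wild type concentration, arrays were at 5 of the 10 and 18 of the 50 highest lost sites by that value. No such count was made in the other groups. A wider site also has more room for an array. The 5 array sites among the 10 highest were 563, 599, 446, 414 and 303 bp wide, beside a median of 320 bp over all 510.

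The 4 lost sites with the highest wild type concentrations all held arrays. The site closest to Fam19a3 had the highest, 7.49, with a mutant concentration of -0.38, and held 12 copies of GGGCGGAG, which is G8A from the motif, in an array with a step of 25 bp. The next were the Cttnbp2nl site (7.45 and 1.05) and the Tufm site (7.21 and -0.38). The Zfp119b site (7.17 and 0.66) held 13 copies of a word with a step of 10 bp that has no exact match. In the stretches of 120 bases below, from the Fam19a3 and Zfp119b sites and both on the plus strand, the copies of the array word are in capitals, so the G-rich element is read on the other strand where C prevails.
Fam19a3 (chr3:104565263-104565382, intergenic): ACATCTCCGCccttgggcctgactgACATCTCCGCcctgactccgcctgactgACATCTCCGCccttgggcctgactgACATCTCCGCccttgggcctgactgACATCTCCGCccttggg
Zfp119b (chr17:56071565-56071684, intergenic): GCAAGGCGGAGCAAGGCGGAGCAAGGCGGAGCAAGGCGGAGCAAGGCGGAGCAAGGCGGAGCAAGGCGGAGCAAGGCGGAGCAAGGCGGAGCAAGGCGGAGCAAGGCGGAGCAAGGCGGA

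The 10 highest also included the sites closest to Mllt1 (7.04 and 1.53), Optc (6.98 and 1.41), Xrcc3 (6.93 and 1.37), Kdelr3 (6.87 and 1.51) and Snhg3 (6.82 and 1.41). The Kdelr3 site held 3 pyrimidine matches over its length. The Xrcc3 site was in an intron of Klc1, which encodes a kinesin light chain, and that of Mllt1 in an intron of Acer1, so the closest TSS did not always name the gene that holds the site. With the 163 sites that had the run or an array left out, 224 of the remaining 347 lost sites (64.6%) had a pyrimidine match, close to the 66.1% of all, but the share with C at the fifth letter fell from 50.4% to 39.5%.

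Sites for GATA factors, which work with KLF1 at erythroid enhancers, were searched as AGATAA or AGATAG and as TGATAA or TGATAG within 150 bp of the midpoint on both strands. They were found at 243 of the 510 lost sites (47.6%, 43.3 to 52.0), against 37.6% (34.7 to 40.7) of the same 301 bp windows placed 1000 bp away and 40.0% of all sites. The distal sites held by both proteins had more, 60.3% (55.8 to 64.7), the mutant-only sites 50.6% (48.1 to 53.1), and the lost promoter sites 18.5% (13.9 to 24.1). The lost distal sites were therefore above their own surroundings and below the sites of both proteins. The E-box words CAGATG and CAGCTG, the kind bound by TAL1 with its partners, were present at 37.8% (33.7 to 42.1) of the lost sites and 35.0% (32.1 to 38.0) of their surroundings, and the NF-E2 word TGANTCA at 5.69% (3.99 to 8.05) and 7.65% (6.17 to 9.44), with overlapping intervals for both words.

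Another consensus site had its midpoint within 10 kb at 154 of the 510 (30.2%, 26.4 to 34.3) and at 32.0% (26.2 to 38.4) of lost promoter sites, against 42.7% of all sites, 53.5% (49.0 to 58.0) of distal sites of both proteins and 40.4% (38.0 to 42.9) of mutant-only sites. At 105 lost sites a site with a mutant concentration of at least 4 lay within those 10 kb, at 58 a mutant-only site, and at 35 another lost site. The 510 sites had 474 different closest genes, of which 443 were closest to 1 lost site, 27 to 2 and 4 to 3 or more. Compared by symbol, GENCODE named the same closest gene at 330 of the 510 (64.7%, 60.5 to 68.7), beside 76.4% of all sites.

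The 4 sites given to Rab11a, a GTPase of recycling endosomes, all lay in Megf11, 3 in introns and 1 in a coding exon, between 65615.5 and 173042.5 bp from the TSS. Their wild type concentrations were 5.57, 5.20, 5.10 and 5.08 and their mutant concentrations 1.39, 0.39, -0.38 and 1.84, and 2 of them were only 33 bases apart. The 3 sites given to Cdc7, a kinase that starts DNA replication, were in or near Tgfbr3, which encodes a TGF-β co-receptor, with wild type values of 4.40, 4.37 and 4.30 and mutant values of 0.34, 1.08 and 0.85. Klf10, another member of the KLF family, had 3 intergenic sites at 12565, 18797 and 31868.5 bp, with wild type values of 5.18, 5.42 and 4.77 and mutant values of 0.88, 1.51 and 0.34. The septin gene Sept9, listed in the table under a calendar date, had 3 sites at 11601, 7388.5 and 83801 bp, with wild type values of 5.35, 5.34 and 5.16 and mutant values of 1.97, 0.88 and 1.76.

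Of the 178 genes in 6 erythroid lists, 101 were the closest gene of any consensus site and 23 that of a lost distal site, 24 sites in all. That is 22.8% (15.7 to 31.9) of the list genes with a site, beside 12.9% (474 of 3670) of all closest genes in the table. Genes with more consensus sites have more chances of a lost one, and these shares were not adjusted for sites per gene. The lists were also not chosen independently of these data. By list, of the genes with any site, these were 8 of 26 red cell membrane, skeleton and blood group genes, 6 of 26 erythroid transcription factors and cofactors, 3 of 15 cell cycle genes, 3 of 15 genes of receptor signalling, survival and organelle clearance, 2 of 16 genes of heme synthesis and iron, and 1 of 3 globin genes and their chaperone. From the study's text 9 genes were picked: Klf1, Alas2, E2f2, Hbb-b1, Cd44, Icam4, Hprt, Klf3 and Klf4. Of these, 5 had a site and 0 a lost distal site. Sp1, which the study names for its protein family, was not among the 9 and had a lost distal site (5.97 and 0.05). The 24 sites had wild type concentrations from 4.40 to 6.13 (median 5.06) and mutant concentrations up to 1.85 (median 0.39), with 7 at the lowest listed value. A pyrimidine match was present at 14, a GATA match at 16, the shared run at 2 (Pim1 and Mcl1) and an array at 0, and 17 were intronic.

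**Figure D5:**
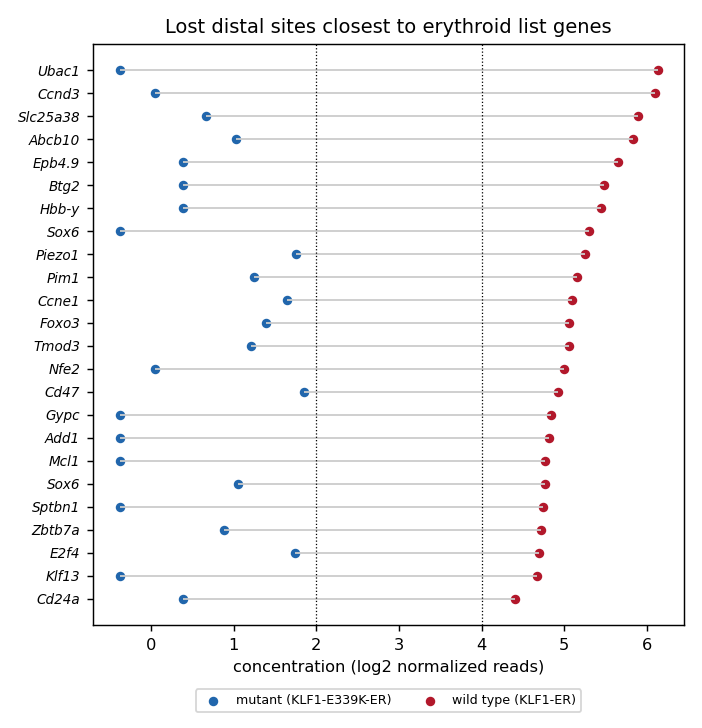
Wild type (red) and mutant (blue) concentration, in log2 normalized reads, of the 24 lost distal sites whose closest gene is on an erythroid list, ordered by the wild type value, with dotted lines at the limits of 2 and 4. The red points run from 4.40 (Cd24a) to 6.13 (Ubac1), and the blue points of 7 sites stand at -0.38.

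Among heme genes, the site in an intron of Slc25a38, the mitochondrial glycine carrier of heme synthesis, had 5.89 in the wild type and 0.66 in the mutant. The site closest to Abcb10, a mitochondrial transporter needed for hemoglobin production, lay in an intron of Gm20388, 5731.5 bp from the TSS. It had 5.83 and 1.03 and no word within 1 difference of the motif. Both genes had other sites that the mutant held. A Slc25a38 site with no match of either kind, 5293.5 bp from the TSS, had 6.57 and 6.46, and an Abcb10 site at 4082 bp had 6.02 and 7.13.

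The single globin site was 7954 bp from the TSS of Hbb-y, the embryonic beta-like globin, and upstream of it in the annotation, on the side of the beta-globin locus control region, with 5.45 in the wild type and 0.39 in the mutant. A second Hbb-y site at 6046 bp, also with a pyrimidine match (GGGTGGGG), had the same wild type value of 5.45 and a mutant value of 2.87, above the limit of 2. Outside the lists, and singled out after its values were seen, a site in an intron of Nprl3, the gene whose introns hold the main alpha-globin enhancers, had 5.79 and 0.39. This Nprl3 site lay 16570.5 bp from the TSS of the table but at -765 bp (upstream) of another annotated Nprl3 start. Another site closest to Nprl3 had 3.67 and 5.56. Whether these sites fall on known enhancer elements was not examined here.

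Among regulators, the Nfe2 site had 5.00 in the wild type and 0.05 in the mutant. Nfe2 encodes the p45 subunit of NF-E2, an activator of globin genes, and the site lay 2549 bp from the TSS of the table but 57 bp upstream of another annotated Nfe2 start. A second Nfe2 site 1090 bp from it, without a match, had 6.20 and 6.53, and another, with both motifs, had 8.03 and 8.90. Sox6, a repressor of embryonic globin genes, had 2 lost intronic sites, at 5.30 and -0.38 and at 4.77 and 1.05, which were 121948 and 210343 bp from the TSS of the table and at -27033 bp (upstream) and 39964 bp (downstream) of the nearest annotated start, a Sox6 start for both. Klf13 (4.67 and -0.38), Zbtb7a (4.72 and 0.88), Foxo3 (5.06 and 1.39) and E2f4 (4.69 and 1.74) had 1 each. Those of Zbtb7a and E2f4 were in introns of these genes. The Foxo3 site lay 83868 bp from the TSS in an intron of Lace1, and the Klf13 site was intergenic at 23246.5 bp.

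In the cell cycle list, the lost site in an intron of Ccnd3, which encodes cyclin D3 and sets how often red cell precursors divide, had 6.10 and 0.05. Of the 8 sites closest to Ccnd3, the one with the highest wild type value, with the purine word GGGAGTGG closest, had 7.33 and 6.91. Btg2, an antiproliferative gene, also had 8 sites: the lost one had 5.48 and 0.39, and one at 16418 bp with 8 purine matches had 0.50 and 6.96. Ccne1, encoding cyclin E1, had 5.10 and 1.64. Among survival and clearance genes the values were 6.13 and -0.38 for Ubac1, a subunit of a ubiquitin ligase, 5.16 and 1.25 for the kinase gene Pim1, and 4.77 and -0.38 for the anti-apoptotic Mcl1.

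The 8 membrane and skeleton genes were each closest to 1 lost site. Those of Epb4.9, which encodes the actin-bundling protein dematin, had 5.65 and 0.39, of Piezo1, a mechanically gated channel, 5.25 and 1.76, and of Tmod3, which caps actin filaments, 5.06 and 1.21. The adducin gene Add1 (4.82), the spectrin gene Sptbn1 (4.74) and the glycophorin gene Gypc (4.84) were all at -0.38 in the mutant. Cd47 and Cd24a, genes of surface proteins, had 4.93 and 1.85, and 4.40 and 0.39.

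Of the 23 list genes, 20 were the closest gene of 66 further consensus sites, and 19 had at least 1 with a mutant concentration of 4 or more. Over those 66 sites the mutant concentration was at least 4 at 51 (77.3%, 65.8 to 85.7), near the 80.6% of all 5041 sites outside the lost ones. Both concentrations were at least 4 at 24 (36.4%, 25.8 to 48.4), against 17.5% of the 5041, and 18 were mutant-only (27.3%, 18 to 39.0), against 46.9%. For all 474 closest genes, 175 (36.9%) had another site with a mutant concentration of at least 4, again not adjusted for sites per gene. For all closest genes, 106 of the 474 also had a promoter site, 136 in all, with median concentrations of 4.32 in the wild type and 4.67 in the mutant. Of these 136 promoter sites, 12 met the same concentration limits as the lost sites and 89 had a mutant concentration of at least 4, which for all 2190 promoter sites was so at 222 and 1577.

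The closest gene was listed in the table of newly made RNA at 396 of the 510 lost sites (77.6%, 73.8 to 81.0), beside 83.3% of all sites, 89.2% of lost promoter sites and 82.1% of distal sites of both proteins. Here a level is the authors' mean log2 CPM over the libraries of their fit, not a difference between groups. The median level of those genes was 6.14, beside 6.60 for distal sites of both proteins, 6.14 for mutant-only sites, 5.65 for lost promoter sites, 6.20 for all sites and 5.27 for all 11364 genes listed. At 271 lost sites (53.1%) the level was at least 5, as it was at 57.4% of all sites. All 23 list genes with a lost site were listed, from 1.81 (Epb4.9) to 10.49 (Abcb10). All 11 erythroid markers were listed in this table, with Gata1 at 9.79 and Tal1 at 9.48, while 2 of 4 megakaryocyte, 2 of 4 myeloid and 0 of 3 lymphoid markers were, the highest of them Itga2b at 5.30, next to Alas2 at 5.29. The adult globin genes Hba-a1 (3.80) and Hbb-b1 (3.87) were the lowest of the erythroid markers. Klf1, disrupted in these cells, was listed at 6.84 in a mean that includes the libraries carrying the KLF1-E339K-ER transgene, so this level is no check of the knockout.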

How the data were processed

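Per the labels and the study's methods, ChIP reads were mapped to mm9 with TMAP, duplicates and reads with several map positions were dropped, and MACS2 and GEM called the peaks. DiffBind gave the deposited concentrations, log2 values of mean normalized read counts. The authors' RNA table holds log2 CPM means (TopHat2 2.0.10, limma). The fold changes and p-values of the authors' comparisons and a second RNA table (KLF1-ER) were not used.

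Sequences were read from NCBIM37 (mm9), which held every site, with GENCODE vM1 annotation (pysam 0.24.0). The table's signed TSS distance does not follow gene strand, so absolute values are given. Words were searched on both strands, and overlapping matches were counted. Closest genes were matched to the RNA table by symbol (377 sites) or identifier (19). Motif functions were tested on simulated data. The searches for a shared run and for arrays were added after seeing the data. Members and lists were chosen with earlier results of these data known. Named genes were the 10 highest lost sites, genes with 3 or more, list genes, and 3 sites beside each limit. Some named sites and sequences are not reported here.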

Additional observations from a re-analysis of the deposited data

How the results depend on the processing

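No paired analysis was possible because no result comes from a test between groups and the binding table holds 1 value for each protein. Of 61 alternatives, 41 gave a share within the main 95% Wilson interval or a count within 1.5 times the main one, and 10 of the 61 were chosen after seeing the data. The number of lost distal sites, 510, became 286 with a wild type minimum of 5 and 312 with a mutant limit of 1. The pyrimidine share of 66.1% was 55.5% within 25 bp, 73.1% within 100 bp and 74.7% over the whole site, and the purine share of 14.5% was 9.80%, 19.0% and 24.3%. Without sites that hold the run or an array the purine share was 19.3% and the C share 39.5% (50.4% with them). The GATA share of 47.6% was 21.2% within 50 bp. The share of sites with another site nearby, 30.2%, was 26.3% with a mutant limit of 1, 25.6% beyond 5000 bp from a TSS, 21.2% within 5 kb and 62.5% within 50 kb. The share with the closest gene in the RNA table, 77.6%, was 64.9% by the closest GENCODE TSS and 53.1% at a mean expression of at least 5. The run share of 14.5% was 10.2% for a 20-letter run, and the array share of 20.2% was 30.6% for 3 or more copies and 12.9% for 5 or more. The wider or narrower window, longer run or changed copy number itself sets how much is found in these cases. The C, pyrimidine and intron shares stayed inside their intervals under each of the other limits on concentration and TSS distance. Pooling without replicates and the unknown depth leave the difference between the proteins at any single site without an error here, where the study's own test of each site was not used.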
